A study of Mus musculus with 26 samples.

Results

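Gene expression was compared between Il10-/- and Il10+/+ lungs that breathed filtered air, the control for the study's ozone (O3) exposures. These were 8 of the 26 arrays of the series, chosen by their labels: 4 of Il10-/- mice and 4 of Il10+/+ mice, each with 2 arrays at 24 hr and 2 at 48 hr. Every array held RNA from the left lung of male mice, 6 to 8 weeks old and from Jackson Labs, kept in individual wire cages in an exposure chamber with 0 ppm O3. The Il10+/+ mice were C57BL/6 and the Il10-/- mice B6.129P2-Il10tmlCgn/J, as the labels spell it, a congenic strain in which the disrupted allele was made in 129 cells and carried into the C57BL/6 background. The deletion and a 129-derived stretch of chromosome 1 around it therefore arrived together and cannot be told apart by this comparison. No array of 72 hr in air was among them. The labels do not say whether an array held 1 mouse, so the spread between arrays behind the p-values may be technical. For the air comparison that spread was estimated from the air and O3 arrays of the series together, except in fits named as of the air arrays alone.

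Interleukin-10 (IL-10) is a cytokine that limits inflammation. It binds a receptor made of the Il10ra and Il10rb chains, and the receptor acts through the kinases Jak1 and Tyk2 on the transcription factor Stat3, which induces Socs3, an inhibitor of cytokine signaling. In the lung, macrophages and lymphocytes are among its sources, and mice without Il10 are known for inflammation that is released from this control.

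The check of the targeted gene came first. Il10 in Il10+/+ lungs was at 3.92 and 4.05 at 24 hr and at 4.06 and 4.25 at 48 hr, on the log2 scale of the deposited array values. In the arrays labelled Il10-/- it was at 6.59 and 6.29 at 24 hr and at 3.87 and 6.72 at 48 hr. So 3 of the 4 Il10-/- arrays had an Il10 signal above all Il10+/+ arrays, while Il10-/- air 48 hr replicate 1 was below all of them. The place of the array's only Il10 probe set within the gene was not analysed here, so its signal does not show whether the deleted part is present. The study reports, without showing the data, that no Il10 mRNA was found in lungs of Il10-/- mice, in air or in O3. Results are given with all 8 arrays (4 against 4) and without the library labelled Il10-/- air 48 hr replicate 1 (3 against 4). That library was left out for its Il10 value, so the Il10 difference without it is a description.

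All 8 arrays looked like lung. The surfactant genes Sftpb and Sftpc of alveolar type 2 cells were at 13.19 to 13.65 and 14.30 to 14.47, the club cell gene Scgb1a1 at 14.08 to 14.39, and the endothelial gene Pecam1 at 10.89 to 11.38. The Y-linked Eif2s3y was at 7.10 to 8.47 and Xist, the X inactivation RNA of females, at 4.31 to 4.82. Pairs of the 8 arrays correlated at 0.981 to 0.996 (Pearson's r across probe sets), and the highest was between the library labelled Il10-/- air 48 hr replicate 1 and Il10-/- air 24 hr replicate 1. A letter c, whose meaning the labels do not give, ends the source name of 3 of the 4 Il10-/- arrays and of 0 of the 4 Il10+/+ arrays.

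With all 8 arrays, 1 of 12394 genes passed the test, 0.00807% of those tested. It was Wdfy1, which encodes an endosomal adaptor of Toll-like receptor signaling. Wdfy1 was at 6.37, 6.51, 6.7 and 6.45 in the Il10+/+ arrays (24 hr replicates 1 and 2, then 48 hr replicates 1 and 2) and at 8.20, 8.35, 7.0 and 8.53 in the Il10-/- arrays in the same order. Every Il10-/- array lay above every Il10+/+ array, the library labelled 48 hr replicate 1 closest to them. The difference was 1.52 ± 0.22 (log2, SE; 2.86-fold higher in Il10-/-; limma, adjusted p = 0.0124). By contrast, 866 genes, 6.99% of those tested, had an unadjusted p under 0.05.

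Without the library labelled Il10-/- air 48 hr replicate 1, 16 genes passed, 0.129% of those tested, and Wdfy1 was among them. In Il10-/- lungs 8 were higher (0.0645% of genes tested; Il10, Ctse, Wdfy1, Pam, Zbtb16, Nnt, Rab17 and Herpud1) and 8 were lower (0.0645%; Chil1, Stk25, Mcm6, St8sia4, Ramp1, Rab7b, Mlph and Shfl). The difference exceeded 2-fold in 11 of the 16. Most of them, 12, were on chromosome 1, in a stretch that holds Il10. Of the genes tested, 859 had an unadjusted p under 0.05 (6.93%).

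**Figure D1:**
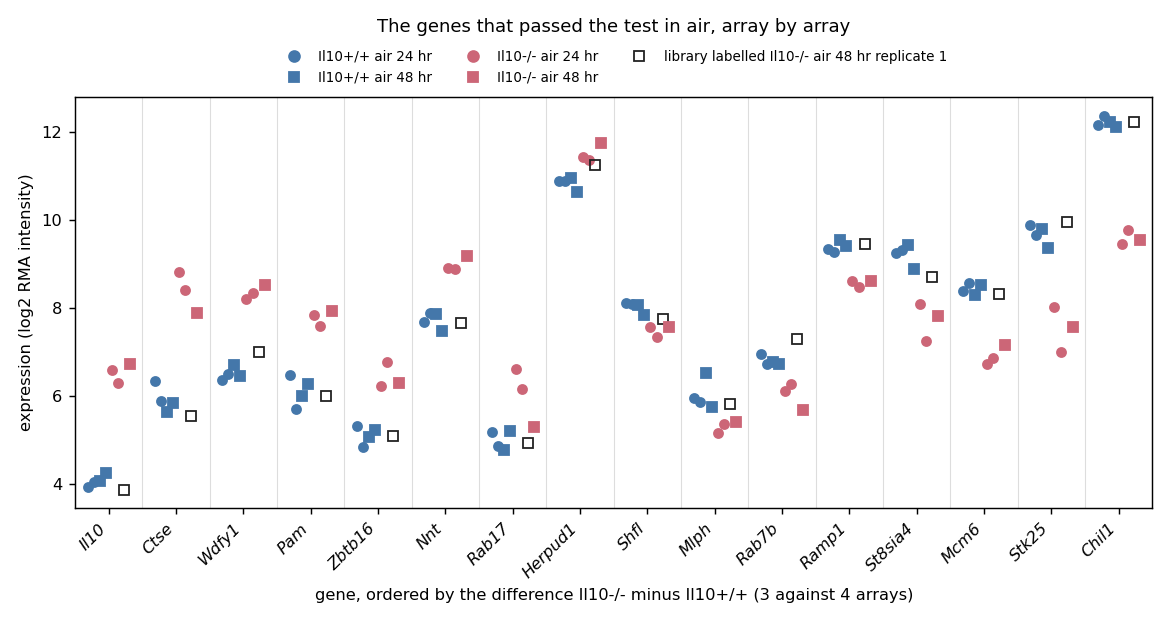
Expression of the 16 genes that passed the test without the library labelled Il10-/- air 48 hr replicate 1, in each of the 8 air arrays (y axis, log2 RMA intensity; circles 24 hr, squares 48 hr; blue Il10+/+, red Il10-/-; open square, that library). The open square lies nearer to the Il10+/+ mean for 14 of the 16 genes, Il10 among them, and nearer to the Il10-/- mean for Herpud1 and Shfl.

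Ctse was higher and Rab7b lower in Il10-/- lungs. Ctse encodes cathepsin E, an aspartic protease of the endosomes of antigen-presenting cells. It was at 6.33, 5.90, 5.65 and 5.84 in Il10+/+ lungs and at 8.81, 8.40, 5.55 and 7.88 in the arrays labelled Il10-/-. The 3 Il10-/- arrays other than 48 hr replicate 1 were above all Il10+/+ arrays, and that library was below them. Without it, Ctse was 5.40-fold higher (2.43 ± 0.23 on the log2 scale; limma, adjusted p = 2.65e-06), and with it the difference was 1.73 and did not pass (limma, adjusted p = 0.242). Wdfy1 was 1.86 ± 0.14 higher without that library (limma, adjusted p = 1.53e-07). Rab7b, a small GTPase of late endosomes, was at 6.95, 6.73, 6.77 and 6.74 in Il10+/+ lungs and at 6.11, 6.27, 7.30 and 5.69 in the Il10-/- arrays, so that 48 hr replicate 1 was the highest of all 8. Its difference without that library was -0.77 ± 0.14 (limma, adjusted p = 0.0231). Rab7b and Ctse follow each other directly among the tested genes of chromosome 1.

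Of the 16 genes, Chil1 had the most negative difference. It encodes a chitinase-like secreted protein (BRP-39) made by macrophages and epithelium, and it was abundant in these lungs. The Il10+/+ arrays had it at 12.17, 12.38, 12.24 and 12.12. The Il10-/- arrays had it at 9.45 and 9.78 at 24 hr and at 12.23 and 9.55 at 48 hr. The 12.23 belongs to the library labelled 48 hr replicate 1, which fell inside the Il10+/+ range. Without that library Chil1 was 6.22-fold lower in Il10-/- lungs (-2.64 ± 0.16; limma, adjusted p = 2.97e-09). With it the difference was -1.98 ± 0.38 (limma, adjusted p = 0.102).

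Among enzymes, Nnt and Pam were higher in Il10-/- lungs. Nnt is the mitochondrial transhydrogenase that regenerates NADPH, and the C57BL/6J substrain is known to carry a deletion in it; the labels give only C57BL/6. It was at 7.69, 7.89, 7.86 and 7.47 in Il10+/+ lungs and at 8.90, 8.90, 7.66 and 9.18 in the arrays labelled Il10-/-. The library labelled 48 hr replicate 1 was again inside the Il10+/+ range. Without it the difference was 1.26 ± 0.12 (limma, adjusted p = 2.65e-06). Of the other measured enzymes of NADPH and glutathione metabolism none passed. So 1 of 16 on that list did, beside 0.129% of all genes, and the list's median difference was -0.02. Pam, which amidates peptide hormones, was at 6.48, 5.70, 6.00 and 6.27 in Il10+/+ lungs and at 7.85, 7.58, 6.00 and 7.94 in the Il10-/- arrays (1.68 ± 0.24 without that library; limma, adjusted p = 0.00131). Stk25, a serine/threonine kinase, was at 9.88, 9.67, 9.80 and 9.36 in Il10+/+ lungs against 8.02, 7.0, 9.96 and 7.56 in the Il10-/- arrays. Without that library its difference was -2.15 ± 0.39 (limma, adjusted p = 0.0196). St8sia4, a sialyltransferase that builds polysialic acid, had a difference of -1.51 ± 0.27 (limma, adjusted p = 0.0180).

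Mcm6, a subunit of the helicase that opens DNA for replication, was at 8.39, 8.58, 8.30 and 8.52 in Il10+/+ lungs and at 6.72, 6.85, 8.31 and 7.16 in the Il10-/- arrays. The 3 lower values stood apart from the other 5 arrays, and without the library at 8.31 the difference was -1.54 ± 0.27 (limma, adjusted p = 0.0180). It was the only one of 23 measured genes on the list for replication and mitosis that passed, beside 0.129% of all genes. Of the 23 differences 19 were below 0, with a median of -0.07. Over all genes the median difference was -0.01, and 46.2% of differences were above 0. Ramp1, a partner chain of the receptor for calcitonin gene-related peptide, was lower by 1.77-fold (-0.83 ± 0.11; limma, adjusted p = 3.46e-04).

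Outside chromosome 1 and Nnt on chromosome 13, the genes that passed were Zbtb16 and Shfl on chromosome 9 and Herpud1 on chromosome 8. Zbtb16 encodes the transcription factor PLZF of innate-like lymphocytes, and glucocorticoids induce it. It was at 5.33, 4.83, 5.06 and 5.24 in Il10+/+ lungs and at 6.23, 6.77, 5.09 and 6.28 in the Il10-/- arrays (1.32 ± 0.21 without 48 hr replicate 1; limma, adjusted p = 0.00480). Shfl, an antiviral gene that blocks ribosomal frameshifting, was at 8.13, 8.08, 8.08 and 7.84 against 7.58, 7.35, 7.74 and 7.57. Herpud1, an endoplasmic reticulum stress gene, was at 10.88, 10.89, 10.96 and 10.63 against 11.43, 11.36, 11.25 and 11.76. For these last 2 genes all 4 Il10-/- arrays lay outside the Il10+/+ range, the library labelled 48 hr replicate 1 included. Their differences without it were -0.53 ± 0.09 and 0.68 ± 0.13 (limma, adjusted p = 0.0150 and 0.0231), and with it -0.47 and 0.61 (limma, adjusted p = 0.102 for each).

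The library labelled Il10-/- air 48 hr replicate 1 was left out of the fit that chose these 16 genes, so its own values did not enter that fit. It was left out for its Il10 value, however, and 12 of the 16 lie in the stretch of chromosome 1 that holds Il10. Its values at these genes are therefore not independent of the reason for leaving it out. It lay nearer to the Il10+/+ mean at 14 of the 16, Il10 among them, and within the Il10+/+ range at 8. The same shares over all genes were not computed, so these counts are a description. With that library in the fit, 15 of the 16 lost the call, and the median standard error of the 16 differences was 0.246 in place of 0.153. With it included, the arrays of the genotypes did not overlap at 4 of the 16, beside 4.43% of all genes; the other 7 arrays chose the 16, so this count is a description. With the letter c as a covariate and without the library labelled 48 hr replicate 1, 12 genes passed, 10 of them among the 16. Whether the letter marks a batch was not tested.

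The 12 genes on chromosome 1 lay within a run of 178 tested genes, which holds 1.44% of all genes with a chromosome. Wdfy1 opened the run 145 tested genes before Il10 and Chil1 closed it 32 after. Between them came Mlph (90 genes before Il10), Rab17 (89), Ramp1 (87), Stk25 (65), St8sia4 (57), Pam (53) and Mcm6 (12), then Il10, with Ctse 8 and Rab7b 9 genes after it. Of the 12, 5 were higher and 7 lower in Il10-/- lungs. Chromosome 1 carries 708 of the 12370 placed genes, or 5.72%. Since the run was drawn around the genes that passed, its share of genes with an unadjusted p under 0.05, 30 of 178 or 16.9% against 6.78% of all other placed genes, is a description.

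**Figure D2:**
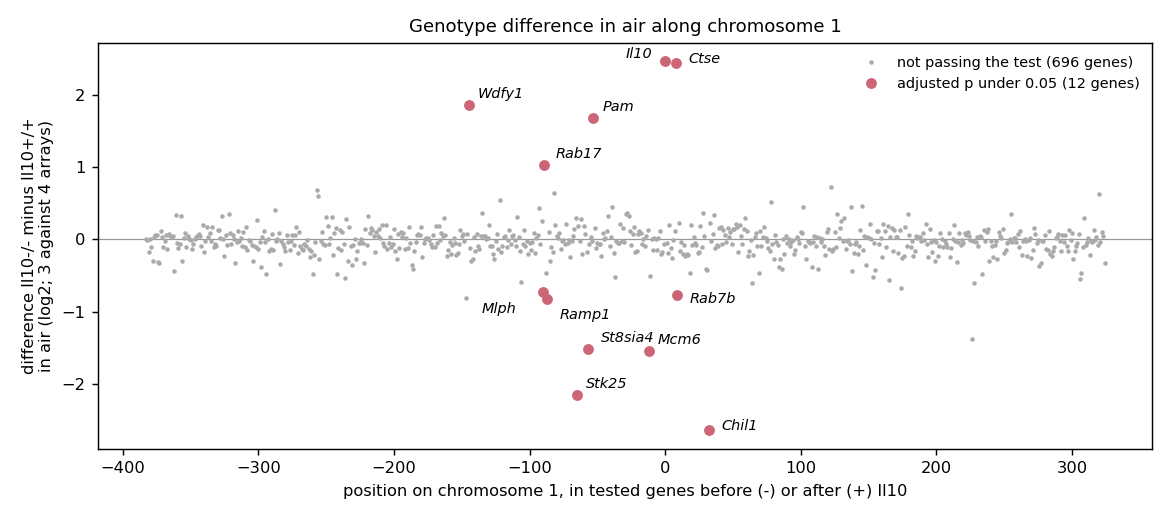
Difference between Il10-/- and Il10+/+ lungs in air (y axis, log2, 3 against 4 arrays) for the 708 tested genes of chromosome 1, in their order along it (x axis, number of tested genes before or after Il10). Red points are the 12 genes that passed; they lie from 145 genes before to 32 genes after Il10, on both sides of 0.

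Other tested genes of the run did not pass. Il20 and Il24, cytokines of the IL-10 family that directly precede Il10 among the tested genes, had differences of -0.06 and -0.17 (limma, adjusted p = 0.958 and 0.851), and Mapkapk2, which directly follows it, -0.05 (limma, adjusted p = 0.977). These 3 neighbors were named for their place. Mlph and Rab17 are adjacent among the tested genes and differed in opposite directions. Mlph encodes melanophilin, which links Rab27a vesicles to myosin. It was at 5.95, 5.87, 6.53 and 5.75 in Il10+/+ lungs and at 5.15, 5.36, 5.81 and 5.40 in the Il10-/- arrays. Rab17, a small GTPase of epithelial trafficking, was at 5.18, 4.85, 4.76 and 5.20 against 6.62, 6.16, 4.93 and 5.30. Without the library labelled 48 hr replicate 1, Mlph was lower by 1.65-fold (-0.72 ± 0.14) and Rab17 higher by 2.04-fold (1.03 ± 0.20; limma, adjusted p = 0.0378 and 0.0420). Both calls were close to the threshold: Mlph passed in 3 of 18 alternatives and Rab17 in 6 of 17, and neither passed with the air arrays alone.

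Promoter sequences are shown for this adjacent pair and for Chil1, which had the largest difference of the 16 genes for 3 against 4, to set the regulatory sequence beside the values (RefSeq, GRCm38.p6, 250 bases before to 50 bases after the start, 5′ to 3′ on the gene's strand; capitals mark an E-box, CACGTG).
Mlph, chr1:90914850-90915149, plus strand: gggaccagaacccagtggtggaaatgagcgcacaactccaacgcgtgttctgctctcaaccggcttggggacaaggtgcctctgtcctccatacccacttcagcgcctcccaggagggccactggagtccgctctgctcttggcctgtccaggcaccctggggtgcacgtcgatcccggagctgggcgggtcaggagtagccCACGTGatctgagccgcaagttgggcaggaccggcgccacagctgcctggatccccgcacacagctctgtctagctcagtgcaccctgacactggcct
Rab17, chr1:90967618-90967917, minus strand: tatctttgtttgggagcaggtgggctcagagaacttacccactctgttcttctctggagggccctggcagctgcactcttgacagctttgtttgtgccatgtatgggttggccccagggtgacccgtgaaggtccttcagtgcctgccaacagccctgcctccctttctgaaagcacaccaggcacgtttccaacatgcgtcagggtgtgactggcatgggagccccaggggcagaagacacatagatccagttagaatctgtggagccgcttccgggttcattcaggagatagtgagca
Chil1, chr1:134181906-134182205, plus strand: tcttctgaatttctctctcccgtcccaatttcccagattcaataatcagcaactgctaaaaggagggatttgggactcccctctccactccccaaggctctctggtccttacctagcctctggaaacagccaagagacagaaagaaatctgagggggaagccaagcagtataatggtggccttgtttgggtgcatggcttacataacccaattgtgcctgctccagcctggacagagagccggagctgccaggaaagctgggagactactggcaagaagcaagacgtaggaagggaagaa

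Of the 16 genes, 9 had a promoter in the table, 10 promoters in all. On either strand, the palindromic STAT motif TTCNNNGAA was in 0 of the 10 and in 8.30% of all 32851 mouse promoters of the table. CACGTG, which is its own reverse complement, was in 1 of the 10, that of Mlph, and in 7.15% of all. An interferon response core was in 0 of the 10 and in 3.44% of all, and an NF-kappaB motif in 0 of the 10 and in 0.244% of all. Counted by gene, CACGTG was in 1 of the 9 and in 10.8% of the tested genes with a promoter. The 10 include overlapping promoters of Pam and are too few to compare these shares, which were not tested.

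The same genotype difference was then measured on 17 O3 arrays, 9 of Il10+/+ and 8 of Il10-/- mice. These arrays did not enter the air means, but they shared in the estimate of the spread behind the p-values in air, and so in the choice of the 16 genes. All 16 genes had the same sign over O3 as in air, and 12 passed there, where 0.516% of all genes passed (64 genes). These 12 are 75% of the genes that passed in air and 18.75% of those that passed over O3. They were 10 of the 12 genes on chromosome 1, and Nnt and Zbtb16. The arrays of the genotypes did not overlap over O3 at 10 of the 16, beside 0.169% of all genes. In a fit of the 7 air arrays alone, in which the O3 arrays had no part, 12 genes passed, 11 of them among the 16, and Herpud1, Mlph, Rab17, Rab7b and Shfl lost the call. The gene added was Manf, a secreted endoplasmic reticulum stress protein (0.97; limma, adjusted p = 0.0288). All of these 12 had the same sign over O3, and 10 passed there, the exceptions being Mcm6 and Manf (0.35; limma, adjusted p = 0.349).

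**Figure D3:**
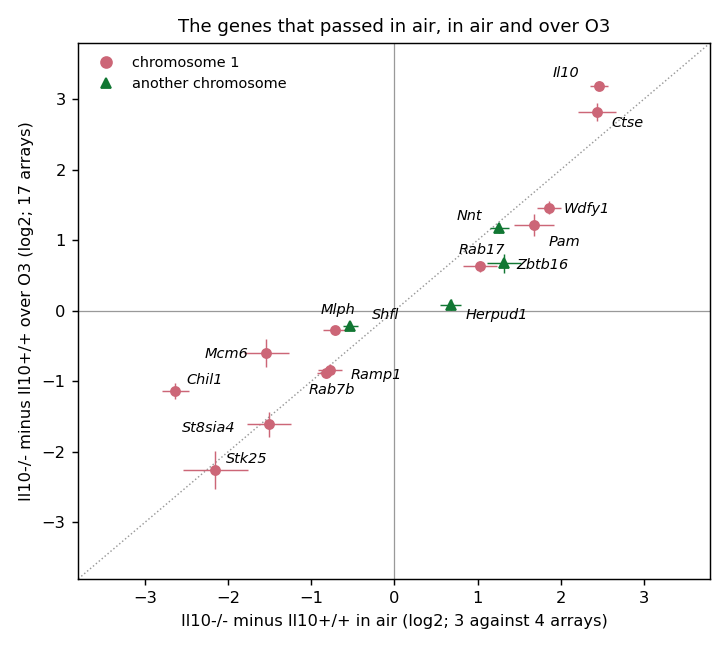
Difference between Il10-/- and Il10+/+ lungs for the 16 genes that passed in air, in air (x axis, log2, 3 against 4 arrays) and over O3 (y axis, log2, mean of 24, 48 and 72 hr, 17 arrays); bars are standard errors and the dotted line marks equal differences. All 16 points lie in the lower left or upper right; Herpud1 lies nearest to 0 over O3.

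Il10 was at 4.02 to 4.21 in the Il10+/+ O3 arrays and at 6.93 to 7.71 in the Il10-/- O3 arrays, so none of these 8 Il10-/- arrays had the low signal of the library labelled Il10-/- air 48 hr replicate 1. Ctse was at 5.10 to 6.12 against 8.14 to 9.14 (2.82 ± 0.13; limma, adjusted p = 1.14e-08). Nnt was at 7.43 to 7.78 against 8.53 to 9.03 (1.18 ± 0.07; limma, adjusted p = 2.81e-07). For these genes the ranges were apart. Chil1 was at 12.51 to 12.72 against 10.93 to 12.05, a difference of -1.14 ± 0.11 (limma, adjusted p = 1.26e-04), beside -2.64 in air; the difference between these 2 values was not tested. The 4 genes that did not pass over O3 were Mlph (-0.28; limma, adjusted p = 0.0783), Shfl (-0.22; 0.113), Mcm6 (-0.60; 0.231) and Herpud1 (0.08; 0.760).

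No genotype difference changed detectably between the air times. In a test of whether the genotype difference changed between 24 and 48 hr of air, 0 genes passed (limma, lowest adjusted p = 0.739), 503 had an unadjusted p under 0.05 (4.06%), and 611 did (4.93%) without the library labelled 48 hr replicate 1, again with 0 passing. In air of 24 hr alone, 2 against 2 arrays, 9 genes passed when that library was left out of the model, 7 of them among the 16. In air of 48 hr alone, where 1 Il10-/- array remained and was assumed to vary like the other groups, 5 passed, all among the 16.

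Of 14 measured genes of the IL-10 receptor and of Stat3 signaling, the Il10 signal passed for 3 against 4 and the other 13 genes did not, beside 0.129% of all genes. The Il10 call is a description, since the library was left out for its Il10 value. The median difference of the list was 0.07. Il10ra, the ligand-binding chain, was at 5.90, 5.61, 5.86 and 5.78 in Il10+/+ lungs and at 5.04, 5.23, 5.50 and 5.11 in the Il10-/- arrays. Its groups did not overlap, but the difference of -0.66 ± 0.18 did not pass (limma, adjusted p = 0.221; -0.57 with all 8 arrays, adjusted p = 0.353); it was named after its values were seen. Il10rb was at 9.75 to 9.88 in Il10+/+ lungs and at 9.68 to 9.97 in the Il10-/- arrays, Stat3 at 11.10 to 11.35 and 10.94 to 11.64, and Socs3 at 7.99 to 9.31 and 8.11 to 8.58. In each of these 3 genes the ranges overlapped.

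Of the genes that the study names, 20 of 21 were measured. Il10, Ctse, Wdfy1, Nnt and Pam passed for 3 against 4, beside 0.129% of all genes. The call of Il10, the targeted gene, is a description, since the library was left out for its Il10 value. The study picked Ctse, Wdfy1, Nnt and Pam on these arrays, so the count is not independent evidence of their direction. Apart from the arrays, the study measured Ctse and Wdfy1 mRNA in lung homogenates of mice in air and in O3. It reports significantly more of both in Il10-/- lungs at some of the times. Its text does not give air and O3 apart for these measurements. Over O3, 8 of the 20 measured genes passed, beside 0.516% of all genes, and this count is not independent of the study's choice either. The study lists Saa3 and Il1b among the genes higher in Il10-/- mice during O3 exposure. In air, Il6, Tnf, Saa3, Cd86 and Il1b did not pass, and the ranges of the genotypes overlapped for each. Il6 was at 3.89 to 4.43 in Il10+/+ lungs and at 4.00 to 4.19 in the Il10-/- arrays, Tnf at 5.26 to 5.72 and 5.28 to 5.82, and Saa3, an acute phase protein, at 5.58 to 6.43 and 5.74 to 6.37. Cd86, a costimulatory molecule, was at 5.33 to 5.76 and 5.23 to 5.86. These are RNA values, whereas the study measured CD86 protein and found more of it in Il10-/- lungs, in air as well as O3. Il1b, an inflammatory cytokine, was at 6.64 to 7.60 and 6.91 to 7.74.

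Over 34 lists of pathways and cell type markers, which hold 423 measured genes, 0 genes passed with all 8 arrays (limma), beside 0.00807% of all genes, and 47 had an unadjusted p under 0.05, beside 6.99%. Without the library labelled 48 hr replicate 1, 5 passed (Il10, Ctse, Nnt, Mcm6 and Zbtb16), beside 0.129% of all genes, and 52 had an unadjusted p under 0.05, beside 6.93%. Ctse was the only one of 15 measured genes of MHC class II and costimulation that passed, with a list median of -0.06. Zbtb16 was the only one of 13 glucocorticoid targets that passed, with a median of -0.04. None of the 15 lists of cell type markers had a member that passed. Of all genes, 46.2% had a difference above 0 for 3 against 4, and 48.9% did over O3. In whole lung, fewer cells of a type and less RNA per cell cannot be told apart.

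Heat shock proteins, chaperones that refold damaged proteins, had the highest list median. All 11 measured genes had differences above 0, with a median of 0.72 (0.63 with all 8 arrays), but 0 passed (limma, lowest adjusted p = 0.106, and 0.194 with all 8). An unadjusted p under 0.05 was found for 10 of the 11 (7 with all 8 arrays), beside 6.93% of all genes. Hspa1a, the largest, was at 9.36, 8.60, 10.23 and 8.10 in Il10+/+ lungs and at 10.39, 10.50, 10.53 and 12.09 in the Il10-/- arrays (1.92 ± 0.52; limma, adjusted p = 0.244). Its groups did not overlap, and the library labelled 48 hr replicate 1 was with the Il10-/- arrays here. Hspa1b was at 10.71, 9.86, 11.07 and 9.56 against 11.47, 12.35, 11.39 and 12.78, and Hsph1 at 9.97, 10.08, 10.57 and 9.88 against 10.79, 11.63, 10.40 and 12.31; both were named after their values were seen. Over the list, the median level relative to the Il10+/+ mean was 0.36 and 0.68 in the Il10-/- arrays of 24 hr and 0.24 and 1.19 in those of 48 hr. Over O3 the list lay the other way, with 10 of 11 differences below 0, a median of -0.20 and 0 passing.

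**Figure D4:**
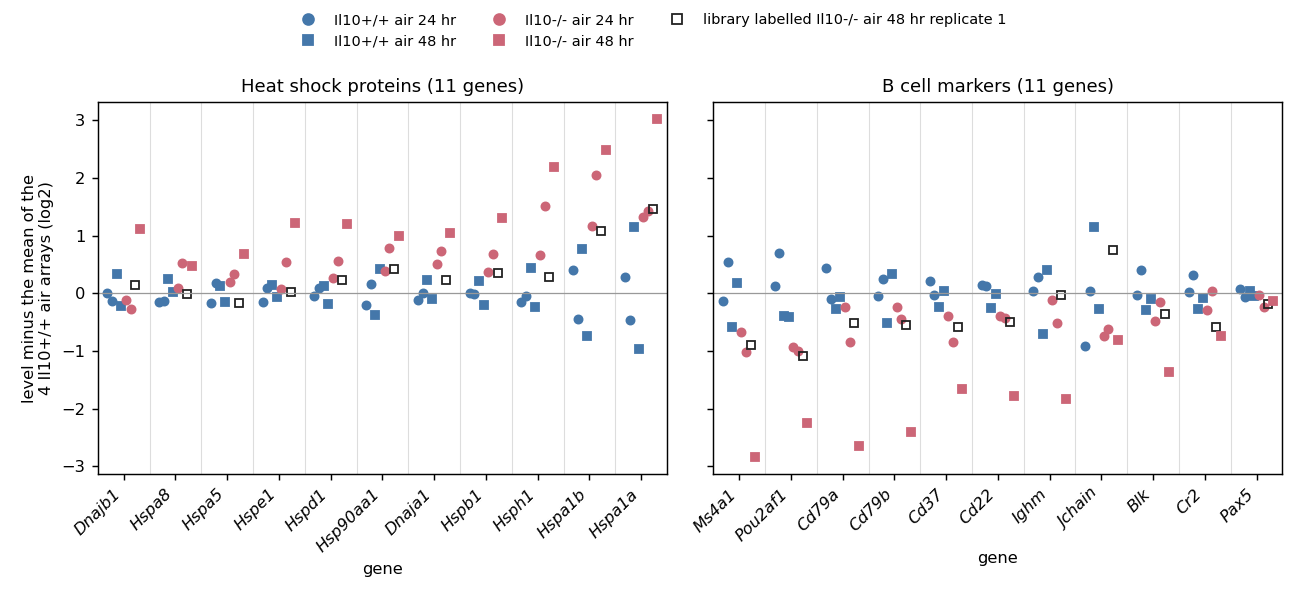
Level of the 11 measured heat shock proteins and the 11 measured B cell markers in each of the 8 air arrays, as the log2 difference from the mean of the 4 Il10+/+ arrays (y axis; symbols as in the plot of genes that passed; genes ordered by the difference for 3 against 4 arrays). Il10-/- air 48 hr replicate 2, the filled red square, lies farthest from 0 in most genes of both lists; none of the 22 genes passed the test.

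B cell markers had the lowest list median. All 11 measured markers were below 0 (median -0.87, and -0.78 with all 8 arrays), 7 had an unadjusted p under 0.05 in either comparison (beside 6.93% of all genes, and 6.99% with all 8 arrays), and 0 passed. Ms4a1, which encodes the surface protein CD20, was at 8.69, 9.36, 8.25 and 9.01 in Il10+/+ lungs and at 8.15, 7.80, 7.92 and 5.99 in the Il10-/- arrays (-1.51 ± 0.59; limma, adjusted p = 0.611). The 4 Il10-/- arrays were below the 4 Il10+/+ arrays, and 48 hr replicate 2 was far below the rest. Cd79a, a chain of the B cell receptor that was named after its values were seen, was at 9.56, 9.02, 8.85 and 9.06 against 8.88, 8.27, 8.61 and 6.47. The median of the list relative to the Il10+/+ mean was -0.39 and -0.52 in the Il10-/- arrays of 24 hr and -0.51 and -1.78 in those of 48 hr. Over O3 all 11 were again below 0, with a median of -0.70, and 1 passed (beside 0.516% of all genes), the kinase gene Blk (-0.56; limma, adjusted p = 0.0255). Cxcr5, the receptor that guides B cells to follicles, had the largest difference of the 30 measured chemokine genes (-0.90 ± 0.26; limma, adjusted p = 0.288). Of the 10 measured antibody and plasma cell genes 7 were below 0, and Iglv1, a light chain segment, differed most (-0.87; limma, adjusted p = 0.665).

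Other immune cell markers lay closer to 0. T cell markers had a median of -0.15, with 12 of 14 below 0 and Ccr7, a lymph node homing receptor, at -0.77. Natural killer and cytotoxic granule genes had a median of 0.19, with 10 of 11 above 0 and perforin, Prf1, at 0.60. Neutrophil markers had a median of -0.08, beside 0.39 over O3, where 4 of the 12 passed, against 0.516% of all genes; in air Ngp, a granule protein, differed most (-1.08), with 8.56 in 1 Il10+/+ array of 24 hr and 4.87 to 6.19 in the other 7. Macrophage markers had a median of -0.15 and Marco, a scavenger receptor, the largest difference, 0.33. Thymus genes had a median of -0.04, with Rag2 at 0.19.

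No marker of structural cells passed. The list medians were -0.02 for alveolar type 2 cells (Cebpa -0.19), 0.06 for type 1 cells (Rtkn2 0.25), 0.18 for ciliated cells (Foxj1 0.45), 0.03 for endothelium (Cdh5 -0.26) and -0.05 for fibroblasts, smooth muscle and mesothelium (Cnn1 0.50). For secretory airway cells the median was 0.10, and Bpifa1, a secreted defense protein of the upper airway, was at 5.38 and 5.79 in the Il10+/+ arrays of 24 hr, 12.12 and 10.74 in those of 48 hr, and 9.36 to 11.95 in the Il10-/- arrays. Both Il10+/+ arrays of 24 hr lay below the other 6 arrays. The median of the 4 measured ciliated cell genes, relative to the Il10+/+ mean, was likewise -0.31 and -0.23 in these arrays and 0.14 to 0.28 in the other 6. Tissue from outside the lung varied too. Heart muscle genes had a median of 0.26 with 9 of 10 above 0 (0.41 with all 8 arrays), and in the Il10+/+ arrays the list's median moved from -0.82 and -0.47 at 24 hr to 0.72 and 0.45 at 48 hr. Its largest member, Sln, differed by 0.32. Red blood cell genes (Slc4a1 -0.66) had a median of -0.20, adipose genes (Fabp4 -0.32) -0.01, and Y-linked genes with Xist (Eif2s3y -0.69) -0.24. The part of these cells in the genes that passed was not tested.

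The remaining pathway lists had no member that passed, and their medians were all within 0.15 of 0. The member with the largest difference was Nfkbie, an inhibitor of NF-kappaB, among NF-kappaB genes (-0.43), Il15 among interleukins (-0.27), Rsad2, an antiviral enzyme, among interferon-stimulated genes (-0.83), and C3ar1 among complement genes (-0.32). Among acute phase and antimicrobial proteins it was Reg3g, a lectin that kills bacteria (1.21), whose Il10+/+ arrays ran from 4.95 to 9.30. It was Per1 for the circadian clock (-1.02), Klf4 for immediate early genes (-0.59), Fdps for sterol synthesis (0.58), Tnc for collagens and matrix (0.30) and the glucose transporter Slc2a1 for metallothioneins and hypoxia genes (-0.24). Per1 was at 9.13 to 9.84 in Il10+/+ lungs and at 7.43 and 7.97 in the Il10-/- arrays of 24 hr, but at 9.46 and 9.83 in those of 48 hr; this change with time did not pass (limma, adjusted p = 0.989).

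Where a gene had several probe sets, the one with the highest mean was used. Of the 16 genes, 10 had others, 11 in all. Of these 11, 8 had the same sign and 3 passed on their own when p-values were adjusted over all 20393 probe sets, 1 each for Wdfy1 (2.20), Zbtb16 (2.10) and Herpud1 (0.69). The 3 of opposite sign, for Ctse (-0.05), Mlph (0.07) and Rab7b (0.30), did not pass. For Ctse the second probe set was at 6.03 on average in Il10+/+ lungs and 5.98 in Il10-/- lungs, so the large difference rests on 1 probe set. With that adjustment the used probe sets of Mlph and Rab17 no longer passed (limma, adjusted p = 0.0530 and 0.0614). Il10, Chil1, Pam, Ramp1, Shfl and Stk25 had 1 probe set each.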

How the data were processed

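Total RNA of left lungs was hybridized to Affymetrix mouse arrays, 26 in all. The authors made the deposited log2 values with the Robust Multichip Average method (RMA; background correction, quantile normalization and median polish) in RMAExpress, whose version is not given in the sources used here. The values cover 22690 probe sets and were used as deposited; probe sets were not screened against background, and the number of arrays limits the precision. Quantile normalization holds the arrays' medians close together (6.59 to 6.65 in air), so a shift of all genes would not be seen.

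Probe sets were named with GEO's platform annotation, looked up by Entrez ID in RefSeq's table for GRCm38.p6, which also gave chromosomes and gene order; 20393 had 1 symbol, and those with several (691) or not listed (1606) were left out. Of the 4958 genes with several probe sets the one with the highest mean was used, which left 12394 genes. Groups came from the sample titles. In limma 3.58.1 (R 4.3.3), 25 arrays (without Il10-/- O3 24 hr replicate 2; the authors left out 1 array of that group without giving its number, and this one had the lowest median correlation with the others of all 26, 0.867 against 0.978 and 0.979 for the other 2 of the group) were fitted with 8 group means, with both air times of a genotype in 1 group, and Il10-/- air was compared with Il10+/+ air; the second fit used 24 arrays. The change between 24 and 48 hr used 10 group means. The O3 check was a separate fit of 17 arrays with 6 group means. P-values were moderated by empirical Bayes and adjusted by the Benjamini-Hochberg method over all genes, with a threshold of 0.05. Differences are Il10-/- minus Il10+/+ with SE.

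The arrays compared and the gene lists were chosen with earlier results of these data known. Named are the genes the study names, the genes that passed in either fit, and each list's member with the largest difference; Il10ra, Hspa1b, Hsph1, Cd79a, Blk, Manf and neighbors of Il10 were added. Lists are described by counts and medians, with no test. Replicate numbers were checked as pairs: same-numbered arrays' deviations from their genotype's mean correlated at -0.303 to 0.116, so the numbers were not taken as pairs. The steps were tested on simulated data. Motifs were searched and figures drawn with Python 3.11.15 and matplotlib 3.10.9.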

Additional observations from a re-analysis of the deposited data

Results flagged for a closer look

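In 11 of 98 sets of 4 air arrays (49 named genes in each genotype), the highest or lowest array stood apart from the other 3. The measure was Dixon's ratio at its 95% critical value, which about 1 in 20 sets pass by chance if genes are named without regard to their values. Many of these genes were named for their values in these arrays, and 1 library was left out for its Il10 value. The count of 11 is therefore a description and cannot be set against that rate. The library labelled Il10-/- air 48 hr replicate 1 was the array apart for Il10 (3.87), Chil1 (12.23), Ramp1 (9.46) and Sln (9.07, against 8.15 to 8.26 in the other 3). Il10-/- air 48 hr replicate 2 was the array apart for Hspa1a (12.09), Ms4a1 (5.99) and Cnn1 (9.50). Among Il10+/+ arrays it was 24 hr replicate 1 for Rab7b (6.95), 24 hr replicate 2 for Marco (8.07), and 48 hr replicate 2 for Rag2 (4.43) and Il15 (4.81).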

How the results depend on the processing

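All 16 genes that passed without the library labelled Il10-/- air 48 hr replicate 1 had the same sign in every alternative run for them, in 285 values for 3 against 4 and 301 for 4 against 4. Without that library, Wdfy1 passed in all 18 alternatives; Chil1, Ctse and Nnt passed in 17 of 18, Pam and Ramp1 in 16, and the other genes but Il10 in 3 to 12. Mlph, with 3, passed in the fewest. Il10 passed in all 17 run for it, but the library was left out for its Il10 value, so this count is a description; like Rab17 and Zbtb16, Il10 is among the dim genes that the filter on low means removes.

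The number of genes that passed moved more. For 4 against 4 (1 gene) it was 0 with the air arrays alone, 0 with exposure time as a covariate, 0 in air of 48 hr alone, 0 with the letter c as a covariate, 3 in air of 24 hr alone, 3 with the mean of probe sets and 110 with array weights (limma; where 0 passed, 944 to 1210 genes had an unadjusted p under 0.05, except 449 at 48 hr alone), and leaving out 1 array at a time gave 0 to 16 (660 to 1055 unadjusted where 0 passed). The count of 16 came without the library labelled Il10-/- air 48 hr replicate 1; Wdfy1 was lost without either Il10+/+ array of 24 hr, either Il10-/- array of 24 hr or Il10-/- 48 hr replicate 2. For 3 against 4 (16 genes) it was 5 with all 26 arrays, 9 in air of 24 hr alone, 5 in air of 48 hr alone and 49 with array weights. Leaving out 1 array at a time gave 8 to 28: 8 without either Il10+/+ array of 24 hr, 9 without Il10-/- 24 hr replicate 2 and 28 without Il10-/- 24 hr replicate 1. In the lists, 0 genes passed for 4 against 4 and 5 for 3 against 4, also with the air arrays alone. With the replicate block, 0 genes passed for 4 against 4 (850 unadjusted) and 7 for 3 against 4. Crossing the pairing at 48 hr, chosen after seeing the data, gave 0 (1018 unadjusted) and 17. Over O3, 9 of the 16 passed with all 18 O3 arrays. The cause of these shifts was not tested.

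The sign turned for some list members that did not pass. In air of 48 hr alone it did for Bpifa1 (-0.157), Ngp (0.111), Sln (-0.115), Il15 (0.0969) and Per1 (0.133) for 4 against 4, and for Ngp (0.186), Prf1 (-0.0728), Slc4a1 (0.272), Sln (-0.517), Per1 (0.319), Klf4 (0.0120) and Slc2a1 (0.102) for 3 against 4. In air of 24 hr alone Fabp4 turned (0.0747 in both). With array weights Fabp4 (0.0827) and Rag2 (-0.0301) turned for 4 against 4, with the mean of probe sets Cdh5 (0.0816), with the replicate block Fabp4 for 3 against 4 (0.0344), and with the letter c Tnc (-0.487 for 4 against 4 and -0.338 for 3 against 4). With 1 array left out, the range crossed 0 for 4 against 4 for Marco (-0.00184 to 0.402), Fabp4 (-0.436 to 0.139), Rag2 (-0.0311 to 0.227) and Tnc (-0.0441 to 0.324), and for 3 against 4 for Sln (-0.0696 to 0.707), Fabp4 (-0.541 to 0.0344) and Rag2 (-0.0313 to 0.356).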
